A study of Mus musculus with 7 samples.

Results

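The genes described here are those of the NF-kB pathway and its regulators, 40 in all, from the Rel-family subunits to the adaptors of TNF, Toll-like and interleukin-1 receptors. Each was read at 1 probe set, the one naming only that gene with the highest mean over all arrays. In this way 35 of the 40 were measured, out of 18193 genes so represented, and all 35 passed the filter on low values. Nfkb1, Chuk, Traf3, Ripk1 and Irak4 had no such probe set in the annotation used and were not analysed here.

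In all, 7 Affymetrix arrays measured the RNA of sorted CD4+ T cells, taken at an age of 3 weeks from the peripheral lymph nodes of males. C57BL/6 mice (B6), the wild type, gave 1 array, from the lymph nodes of 2 mice pooled. Scurfy mice (Sf, B6.Cg-Foxp3sf/J), mutant in the regulatory T cell factor Foxp3, gave 3 arrays. Scurfy mice that also carried the null Il2 allele of B6.129P2-Il2tm1Hor/J, written Sf.Il2-/- as in the labels, gave the other 3, so that all 6 mutant arrays share the Foxp3 mutation, which affects the whole animal. Labels call the mutant arrays biological replicates, and with 1 B6 array every comparison with B6 assumes that it varies like the mutants. Values are the authors' intensities, taken here as log2(intensity + 1), and differences are on that scale unless a fold is named.

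NF-kB is a family of dimeric transcription factors held in the cytoplasm by IkB proteins. In the canonical branch, signals from the T cell receptor, TNF or Toll-like receptors reach the IKK complex, which marks IkB for destruction so that dimers with Rela or Rel enter the nucleus. In the alternative branch the kinase encoded by Map3k14 drives the processing of the Nfkb2 product, the partner of Relb. Chains of ubiquitin built by TRAF, cIAP and linear ubiquitin ligases carry the signal, and the products of Tnfaip3, Cyld and Otulin take them down. In T cells the pathway supports activation, survival and the making of cytokines.

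Some facts on the arrays bear on every value below. Arrays had median intensities of 29.3 to 32.4, with upper quartiles of 110 to 145. Over 14762 dim probe sets, B6, Sf 3 and Sf.Il2-/- 3 were more like each other than like the other 4 arrays, and these are called array sets 2 and 1. The lowest correlation within a set was 0.553 and the highest between sets 0.554, so the division is uncertain, and the labels name no such sets. Foxp3 read 7.25 in B6, 5.87 to 6.32 in the Sf arrays and 4.20 to 4.41 in the Sf.Il2-/- arrays. Il2 read 5.22 in B6, 5.09 to 7.35 in Sf and 7.17 to 8.20 in Sf.Il2-/-, and since the place of its probes relative to the disrupted part is not given, this does not test the genotype. The 7 measured CD4 T cell markers of a list of 8 read 9.36 to 11.9 in every array. Their summed intensity was 17180 in B6, 10310, 8864 and 12200 in the Sf arrays, and 15470, 14610 and 16080 in the Sf.Il2-/- arrays, so it was lower in every Sf array than in the other 4 arrays. Its part in the members' values below B6 in Sf was not tested. The summed intensity of 5 neutrophil markers was highest in Sf.Il2-/- 2 (560) and Sf 1 (332), and 151 to 215 in the remaining arrays. That of the 4 measured NK markers was 407 in B6 and 1056 to 3712 in the mutants. Of these, Nkg7, Gzma and Eomes are also made by cytotoxic T cells, and Ncr1, the defining NK receptor, read 2.14 to 3.12. The summed intensity of 6 B cell markers was 106 to 182. That of 6 dendritic cell markers was 103 to 174, that of 6 monocyte and macrophage markers 482 to 997, and that of 2 CD8 T cell markers 146 to 312. At least 1 array read 5 or more for 2 of the 6 B cell markers (Pax5 reached 6.06 and Cd79b 5.30) and for 3 of the 6 dendritic cell markers (Itgax reached 5.96), while Ms4a1 stayed at or below 4.95 and Flt3 at or below 3.08. The same held for 5 of the 6 monocyte and macrophage markers, of which Csf1r read 8.36 to 9.49. Lyz2 reached 7.02 in Sf.Il2-/- 2 and Cd68 reached 6.74 in Sf.Il2-/- 3, while Itgam read 1.02 to 4.19. The part of these other transcripts in the results on NF-kB genes was not tested, apart from the fits without Sf 1 and Sf.Il2-/- 2.

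No NF-kB pathway gene passed the threshold in any comparison. Between Sf.Il2-/- and Sf, 0 of 35 had a limma adjusted p under 0.05, beside 0.279% of the 11460 genes tested, and 0 had an unadjusted p under 0.05, beside 7.92%. Between Sf and B6 it was 0 of 35 beside 2.47%, and 5 (Rela, Ikbkb, Ikbke, Cyld and Rbck1) unadjusted beside 22.5%. Between Sf.Il2-/- and B6 it was 0 of 35 beside 2.69%, and 2 (Ikbkb and Ikbke) unadjusted beside 18.6%. At the unadjusted level the share of members called was below the background in all 3 comparisons. At the adjusted level the background shares are so small that 0 of 35 does not set the members apart. In cells measured in bulk, a different mixture of CD4 T cell states and a different RNA level per cell cannot be told apart.

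Intervals of 95% show what these counts leave unmeasured. For Sf.Il2-/- v Sf, 27 of the 35 intervals lay within 2-fold either way, and the exceptions were Nfkb2, Relb, Bcl3, Ikbke, Tnfaip3, Tnip2, Rnf31 and Traf1. For Sf v B6 only 8 did, and for Sf.Il2-/- v B6 only 11, so against B6 a 2-fold difference in most members was within the error. The median member difference was 0.19 for Sf.Il2-/- v Sf, -0.31 for Sf v B6 and -0.13 for Sf.Il2-/- v B6. Over all genes tested it was 0.08, -0.25 and -0.14. After quantile normalization the medians of all genes moved to 0.03, 0.02 and 0.06 and those of the members to 0.10, 0.16 and 0.17. The sign of the typical difference from B6, for members and for all genes, therefore depended on the scaling.

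**Figure D1:**
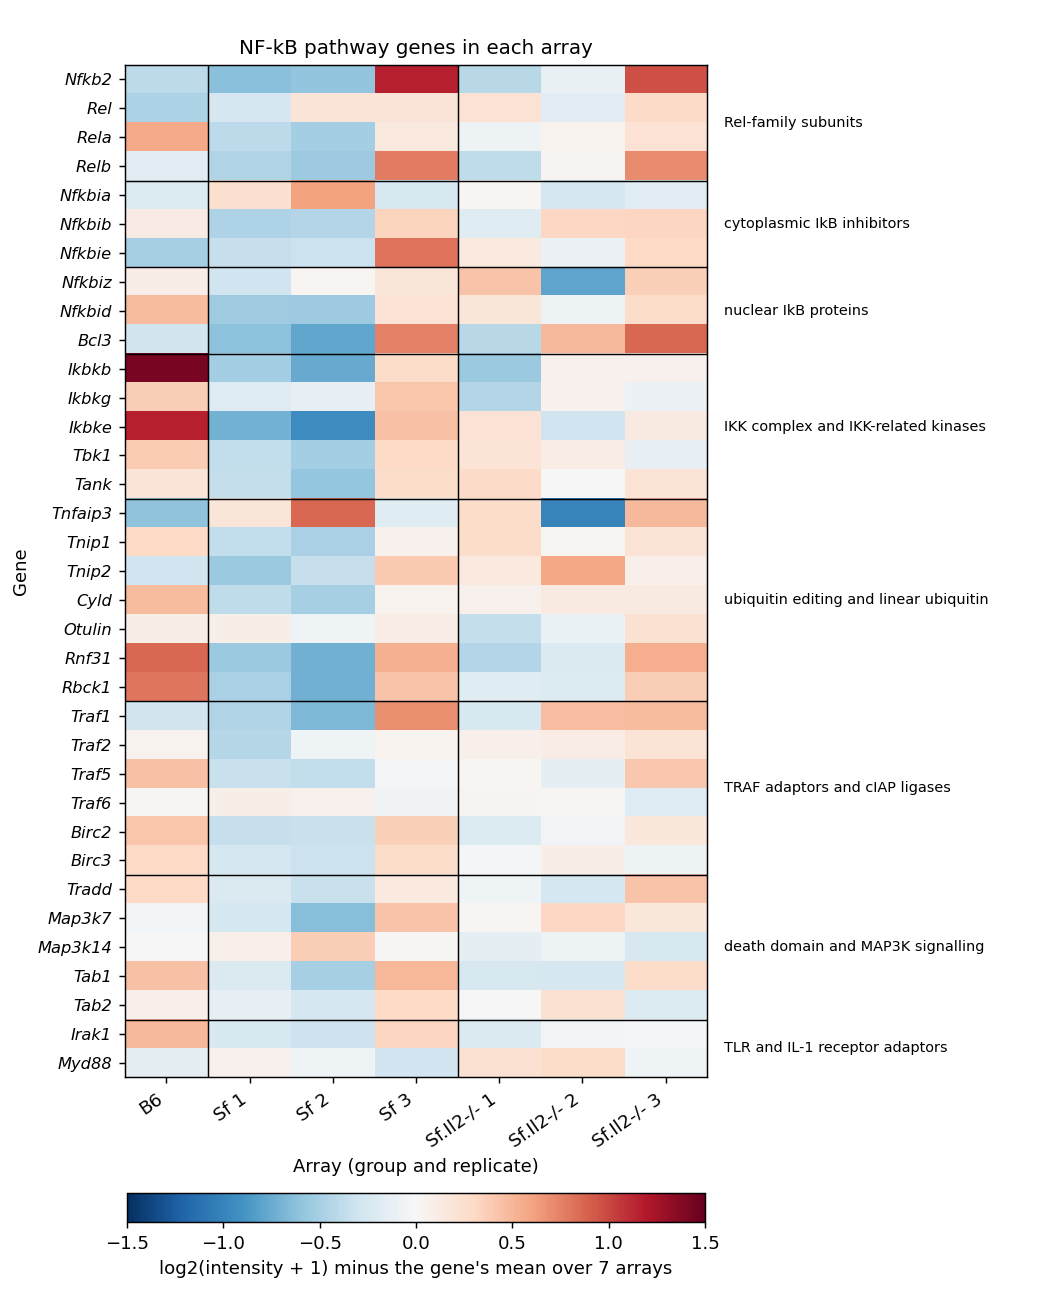
Each row is a measured NF-kB pathway gene and each column an array, coloured by log2(intensity + 1) minus the gene's mean over the 7 arrays, with rows grouped by role. Ikbkb and Ikbke are darkest in B6, and Nfkb2, Relb and Bcl3 are high in Sf 3 and Sf.Il2-/- 3.

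Among the Rel-family subunits, which bind DNA, Rela was lower and Rel higher in every mutant array than in B6. Rela, the main transactivating subunit of the canonical branch, read 10.63 in B6, 9.67, 9.55 and 10.21 in the Sf arrays, and 9.99, 10.12 and 10.28 in the Sf.Il2-/- arrays. Every mutant array lay below B6, and Sf 3 overlapped the Sf.Il2-/- arrays. The difference was -0.82 ± 0.30 (SE, n = 3 and 1; limma adjusted p = 0.156) for Sf v B6 and -0.50 ± 0.30 (limma adjusted p = 0.414) for Sf.Il2-/- v B6. Rel, the subunit most tied to lymphocyte activation, read 6.20 in B6, 6.42, 6.88 and 6.87 in the Sf arrays, and 6.90, 6.51 and 6.97 in the Sf.Il2-/- arrays. Its arrays ran in the opposite direction, all 6 above B6, with Sf and Sf.Il2-/- overlapping. Differences from B6 were 0.53 ± 0.31 (limma adjusted p = 0.330) in Sf and 0.59 ± 0.31 (limma adjusted p = 0.343) in Sf.Il2-/-.

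Nfkb2 and Relb, the pair of the alternative branch, were highest in the third array of each mutant group. Nfkb2 read 7.60 in B6, 7.37, 7.40 and 9.17 in the Sf arrays, and 7.59, 7.89 and 8.96 in the Sf.Il2-/- arrays. Relb read 7.73 in B6, 7.45, 7.35 and 8.67 in the Sf arrays, and 7.51, 7.93 and 8.61 in the Sf.Il2-/- arrays. In both genes Sf 3 and Sf.Il2-/- 3 stood above the other 5 arrays, while the remaining mutants lay near B6. With the array set as a block, Nfkb2 was above B6 by 1.38 ± 0.26 in Sf (limma adjusted p = 0.0277) and by 1.54 ± 0.26 in Sf.Il2-/- (limma adjusted p = 0.0162), against 0.38 ± 0.71 and 0.54 ± 0.71 without it. The blocked fit takes the shift between array sets from the mutant arrays, since both sets hold arrays of both mutant groups. It assumes that the same shift holds for B6, which has 1 array, and this was not tested. The other probe set of Nfkb2 read 7.84 in B6, 6.87, 6.97 and 8.02 in the Sf arrays, and 8.30, 7.69 and 7.94 in the Sf.Il2-/- arrays. There Sf.Il2-/- 1 was the highest array, and Sf 3 and Sf.Il2-/- 3 lay within 0.20 of B6, so the pattern of the brighter probe set was not seen at the dimmer one. Relb has 1 probe set.

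**Figure D2:**
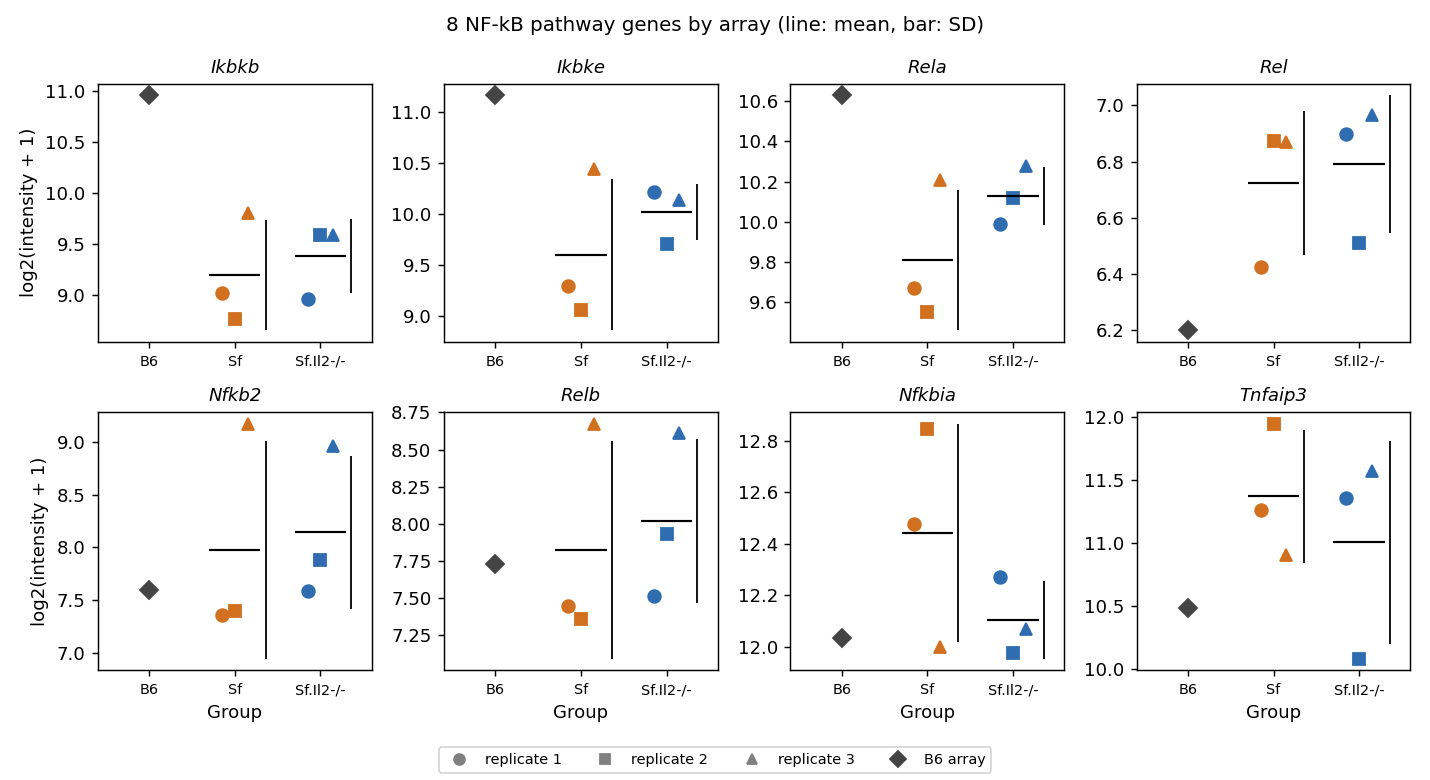
Points are the arrays of each group for 8 genes, on log2(intensity + 1) axes that differ between panels, with a line for the group mean and a bar for 1 SD where there are 3 arrays. Ikbkb, Ikbke and Rela lie below the B6 array in all 6 mutant arrays, Rel lies above it, and replicate 3 is the highest mutant array of its group for Nfkb2 and Relb.

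The cytoplasmic IkB inhibitors did not pass in any comparison with all arrays. In Sf.Il2-/- v B6 all 3 differences were above 0, from 0.03 to 0.61, and between the other groups their signs were mixed. Nfkbia, which encodes the main inhibitor and is itself induced by NF-kB, read 12.04 in B6, 12.48, 12.85 and 12.00 in the Sf arrays, and 12.27, 11.98 and 12.07 in the Sf.Il2-/- arrays. Sf 1 and Sf 2 were the highest arrays, and Sf 3 lay at the level of B6. Without Sf 3, Nfkbia was higher in Sf than in B6 by 0.63 ± 0.18 (limma adjusted p = 0.0332) and lower in Sf.Il2-/- than in Sf by a difference of -0.56 ± 0.14 (limma adjusted p = 0.0441). With it they were 0.41 ± 0.28 (limma adjusted p = 0.391) and -0.34 ± 0.19 (limma adjusted p = 0.771). All 5 probe sets of Nfkbia were above B6 in both group means. At the dimmest it read 7.95 in B6 and 8.42 to 9.64 in the mutants, with Sf 3 at 9.28. For Sf.Il2-/- v Sf the probe sets not chosen differed by -0.18, -0.02, 0.00 and -0.48 with all arrays. Nfkbie read 7.93 in B6, 8.08, 8.10 and 9.24 in the Sf arrays, and 8.57, 8.34 and 8.73 in the Sf.Il2-/- arrays, so all mutants lay above B6, as they also did at its other probe set. Its differences from B6 were 0.54 ± 0.45 in Sf and 0.61 ± 0.45 in Sf.Il2-/-. Nfkbib read 8.57 in B6, 8.26 ± 0.45 (SD, n = 3) in Sf and 8.60 ± 0.28 (SD, n = 3) in Sf.Il2-/-, groups that overlapped.

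The nuclear IkB proteins, which bind dimers on DNA, overlapped between the mutant groups. Bcl3 read 7.89 in B6, 7.56, 7.40 and 8.92 in the Sf arrays, and 7.75, 8.66 and 9.03 in the Sf.Il2-/- arrays, with the arrays numbered 3 highest in both groups. It had the highest member difference for Sf.Il2-/- v Sf, 0.52 ± 0.44, with an interval of -0.46 to 1.50. Nfkbid read 10.27 in B6, 9.26, 9.25 and 10.01 in the Sf arrays, and 9.98, 9.73 and 10.08 in the Sf.Il2-/- arrays, all mutants below B6. Nfkbiz read 10.41 in B6, 10.28 ± 0.24 (SD) in Sf and 10.31 ± 0.68 (SD) in Sf.Il2-/-, where Sf.Il2-/- 2 was lowest at 9.53. At another probe set Nfkbiz read 10.40 in B6 and 9.04, 8.82 and 10.17 in the Sf arrays. In the Sf.Il2-/- arrays it read 9.69, 8.81 and 8.79 there, so all mutants lay below B6. Its remaining probe set differed from B6 by 0.14 in Sf and 0.03 in Sf.Il2-/-.

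Promoters are shown for the genes among the subunits and inhibitors whose RNA NF-kB is known to induce and whose window held the kB motif GGGNNTTTCC, together with Tnfaip3, the inducible ubiquitin editor described below. In RefSeq promoter windows of the GRCm38.p6 assembly, from 250 bases before to 50 after a gene start, 512 of 27025 genes (1.89%) held this motif on either strand. Of the 35 measured members 30 had a window, and 8 held the motif: Nfkb2, Rel, Nfkbia, Tnfaip3, Cyld, Tank, Map3k7 and Traf2. The 250 bases before the start are printed 5′ to 3′ on the gene's strand, with the match in capitals, in either orientation. They lie at chr19:46304487-46304736 (plus strand, Nfkb2), chr11:23770970-23771219 (minus strand, Rel), chr12:55492648-55492897 (minus strand, Nfkbia) and chr10:19015411-19015660 (minus strand, Tnfaip3).
Nfkb2: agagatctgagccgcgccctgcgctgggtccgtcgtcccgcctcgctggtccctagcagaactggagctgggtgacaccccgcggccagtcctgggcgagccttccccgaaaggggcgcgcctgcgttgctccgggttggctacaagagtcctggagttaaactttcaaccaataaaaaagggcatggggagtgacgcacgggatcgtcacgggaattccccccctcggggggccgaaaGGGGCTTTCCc
Rel: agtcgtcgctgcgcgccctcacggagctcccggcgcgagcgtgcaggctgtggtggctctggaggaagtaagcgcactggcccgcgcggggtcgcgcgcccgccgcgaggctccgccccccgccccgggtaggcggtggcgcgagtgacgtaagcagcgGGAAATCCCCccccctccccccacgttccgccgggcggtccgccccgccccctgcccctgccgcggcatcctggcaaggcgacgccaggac
Nfkbia: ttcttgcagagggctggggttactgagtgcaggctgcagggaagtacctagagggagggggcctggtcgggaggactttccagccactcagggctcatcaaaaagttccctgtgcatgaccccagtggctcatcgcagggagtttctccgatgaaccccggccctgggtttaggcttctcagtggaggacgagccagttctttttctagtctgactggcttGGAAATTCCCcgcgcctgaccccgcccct
Tnfaip3: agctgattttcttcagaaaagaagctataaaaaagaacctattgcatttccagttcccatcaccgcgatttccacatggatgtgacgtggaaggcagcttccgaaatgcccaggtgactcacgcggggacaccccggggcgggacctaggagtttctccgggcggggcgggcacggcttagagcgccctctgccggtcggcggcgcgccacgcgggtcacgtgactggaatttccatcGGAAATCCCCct
The capitals begin 11, 91, 29 and 12 bases before the start. These letters are a description and not a measured binding site. At the chosen probe sets the 4 genes differed in how their arrays lay. Rel was above B6 in all 6 mutant arrays, Tnfaip3 in 5, Nfkbia in 4 and Nfkb2 in 3. At other probe sets of Nfkbia, among them the dimmest, all 6 lay above B6.

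IKK genes held the lowest member differences from B6. On the scale as deposited, all 5 measured genes of this role were below B6 in both group means at the chosen probe sets. Of the 6 probe sets of Ikbkg, 5 had that sign in Sf and 2 in Sf.Il2-/-. The other probe set of Tank was above B6 by 0.07 in Sf and 0.06 in Sf.Il2-/-. After quantile normalization the chosen probe set of Tank was above B6 by 0.22 in Sf and 0.27 in Sf.Il2-/-. Tbk1 was then above B6 by 0.06 in Sf. Ikbkb, the catalytic subunit that phosphorylates IkB, read 10.96 in B6, 9.02, 8.77 and 9.81 in the Sf arrays, and 8.97, 9.59 and 9.59 in the Sf.Il2-/- arrays. Each mutant array was at least 1.15 below B6, and the mutant groups overlapped. It had the lowest p among members in both comparisons with B6, with differences of -1.76 ± 0.42 in Sf (a 3.39-fold lower level; limma adjusted p = 0.0612) and -1.58 ± 0.42 in Sf.Il2-/- (2.98-fold lower; limma adjusted p = 0.0899). Neither passed the threshold with all arrays on the scale as deposited. Without Sf 3 both passed, at -2.06 ± 0.29 (limma adjusted p = 0.00345) and -1.58 ± 0.28 (limma adjusted p = 0.00878). After quantile normalization both passed, at -1.21 ± 0.26 (limma adjusted p = 0.0394) and -1.19 ± 0.26 (limma adjusted p = 0.0360). Over the alternatives run, the difference lay between -2.06 and -0.83 in Sf v B6 and between -1.68 and -0.87 in Sf.Il2-/- v B6, in both nearest to 0 with the mean of its 5 probe sets. Within array set 2 the differences from B6 were -1.15 and -1.37. Of its 4 other probe sets, 3 also had every mutant group mean below B6. The fourth differed from B6 by 0.38 in Sf and -0.15 in Sf.Il2-/-, and read 5.22 or less in every array. Among the 3, the dimmest read 5.53 or less in every array.

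Ikbke, an IKK-related kinase of innate signalling, read 11.16 in B6, 9.30, 9.06 and 10.44 in the Sf arrays, and 10.21, 9.70 and 10.14 in the Sf.Il2-/- arrays. Again every mutant lay below B6, and Sf 3 lay above all Sf.Il2-/- arrays. Differences from B6 were -1.56 ± 0.48 (limma adjusted p = 0.110) in Sf and -1.15 ± 0.48 (limma adjusted p = 0.238) in Sf.Il2-/-. Without Sf 3 they passed at -1.99 ± 0.25 (limma adjusted p = 0.00252) and -1.15 ± 0.24 (limma adjusted p = 0.0157). Tbk1, its close relative, read 10.41 in B6, 9.83 ± 0.43 (SD, n = 3) in Sf and 10.09 ± 0.17 (SD, n = 3) in Sf.Il2-/-, with all 6 mutants below B6. Tank, the scaffold of both kinases, read 10.29 in B6, 9.88 ± 0.44 and 10.27 ± 0.15, and Ikbkg, the regulatory subunit of IKK, 7.61 in B6, 7.28 ± 0.33 and 7.09 ± 0.26. For these, B6 lay within the range of the mutants.

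The genes of the linear ubiquitin ligase were lower in all mutant arrays, most in set 1. Rnf31, its catalytic subunit, read 8.53 in B6, 7.11, 6.95 and 8.20 in the Sf arrays, and 7.23, 7.46 and 8.21 in the Sf.Il2-/- arrays. Rbck1, an accessory subunit, read 10.23 in B6, 8.95, 8.71 and 9.86 in the Sf arrays, and 9.25, 9.23 and 9.80 in the Sf.Il2-/- arrays. In both genes the third array of each mutant group was nearest to B6. Differences from B6 in Sf were -1.11 ± 0.52 (limma adjusted p = 0.238) for Rnf31 and -1.06 ± 0.44 (limma adjusted p = 0.196) for Rbck1, but within set 2 only -0.33 and -0.37. Sharpin, the other subunit, which belongs to a second list, read 9.55 in B6 and 8.66 to 9.25 in the mutants (Sf v B6, -0.68 ± 0.31; limma adjusted p = 0.226). Otulin, which cleaves linear chains, read 8.45 in B6, 8.41 ± 0.09 (SD, n = 3) in Sf and 8.29 ± 0.30 (SD, n = 3) in Sf.Il2-/-, so B6 lay within the range of the mutants.

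The ubiquitin editors and their partners differed from each other. Tnfaip3, an inhibitor that NF-kB induces, read 10.49 in B6, 11.26, 11.95 and 10.90 in the Sf arrays, and 11.36, 10.08 and 11.57 in the Sf.Il2-/- arrays. All Sf arrays were above B6, and Sf.Il2-/- 2 was below it. Its differences were 0.88 ± 0.54 (limma adjusted p = 0.347) for Sf v B6, the highest of the members there, and -0.37 ± 0.38 (limma adjusted p = 0.899) for Sf.Il2-/- v Sf, with -0.88 within set 1 and 0.67 within set 2. Cyld, a deubiquitinase that limits the pathway, read 9.94 in B6, 9.08, 8.96 and 9.52 in the Sf arrays, and 9.53, 9.60 and 9.59 in the Sf.Il2-/- arrays. For Cyld the 3 groups did not overlap, with Sf lowest, Sf.Il2-/- between and B6 highest, though Sf 3 and Sf.Il2-/- 1 lay within 0.01. Differences were -0.75 ± 0.29 (limma adjusted p = 0.172) for Sf v B6 and 0.39 ± 0.20 (limma adjusted p = 0.727) for Sf.Il2-/- v Sf. At another probe set of Cyld, Sf 3 (8.70) lay above Sf.Il2-/- 1 (8.54), so there the mutant groups overlapped. Tnip1, whose product binds that of Tnfaip3, had the lowest p of the members in Sf.Il2-/- v Sf. It read 10.41 in B6, 9.73, 9.61 and 10.16 in the Sf arrays, and 10.38, 10.13 and 10.31 in the Sf.Il2-/- arrays, so that Sf 3 overlapped the lowest Sf.Il2-/- array. Its difference was 0.44 ± 0.20 (interval -0.00 to 0.88, limma adjusted p = 0.629), and without Sf 3 it was 0.60 ± 0.15 (limma adjusted p = 0.0432). After quantile normalization it was 0.11 (limma adjusted p = 0.807), and over the alternatives it lay between 0.11 and 0.60, with adjusted p from 0.0432 to 1.00. Tnip2, a related partner, read 6.09 in B6, 6.21 ± 0.50 (SD, n = 3) in Sf and 6.65 ± 0.27 (SD, n = 3) in Sf.Il2-/-. In array set 1 alone it was higher in Sf.Il2-/- than in Sf by 0.82 ± 0.19 (n = 2 and 2; limma adjusted p = 0.0488), and in set 2 the difference was -0.31.

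**Figure D3:**
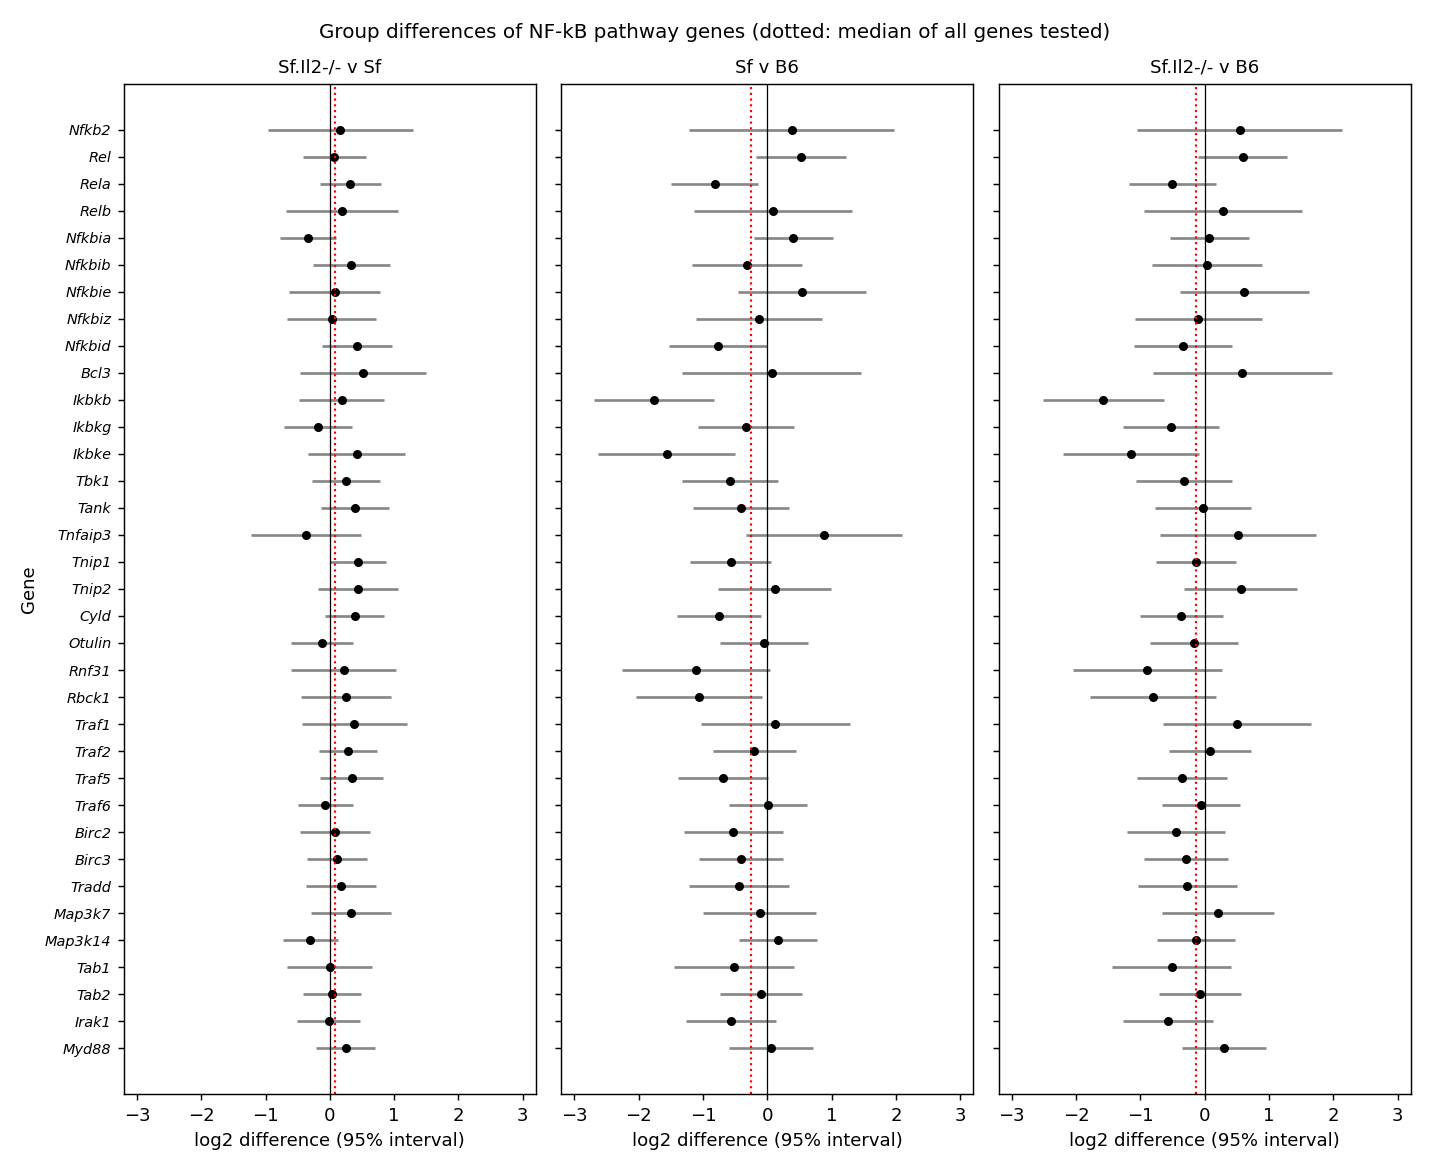
Dots are the log2 differences of each NF-kB pathway gene in the 3 comparisons, bars their 95% intervals from limma, and the dotted line the median difference over all genes tested. Ikbkb and Ikbke lie furthest below 0 in both comparisons with B6, and most intervals include 0.

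TRAF adaptors and cIAP ligases, which pass the signal from TNF receptors, were split: the B6 array lay within the range of the mutants for Traf1, Traf2 and Traf6, and above it for Traf5, Birc2 and Birc3. Traf1, an adaptor that NF-kB induces, read 8.20 in B6, 8.01, 7.79 and 9.17 in the Sf arrays, and 8.23, 8.94 and 8.94 in the Sf.Il2-/- arrays. Its Sf arrays thus spanned those of both other groups. At its other probe set it read 8.62 in B6, 8.34, 8.33 and 9.09 in the Sf arrays, and 7.57, 8.13 and 7.86 in the Sf.Il2-/- arrays, there below B6 and below every Sf array, against the direction of the chosen probe set. Traf2, the adaptor that recruits the cIAP ligases, read 7.74 in B6, 7.54 ± 0.25 (SD, n = 3) in Sf and 7.82 ± 0.07 (SD, n = 3) in Sf.Il2-/-. It was higher in each Sf.Il2-/- array than in each Sf array, by a mean of 0.28 ± 0.20 (limma adjusted p = 0.844). Traf5 read 8.48 in B6, 7.80 ± 0.19 and 8.13 ± 0.28, below B6 in all 6 mutants. Traf6, which serves Toll-like and interleukin-1 receptors, read 8.08 in B6, 8.09 ± 0.08 and 8.02 ± 0.13, and its intervals lay within 2-fold in all 3 comparisons. The ligase genes Birc2 (9.47 in B6, 8.95 ± 0.40 and 9.02 ± 0.18) and Birc3 (10.27 in B6, 9.86 ± 0.33 and 9.97 ± 0.09) were below B6 in all 6 mutants. Without Sf 3, both were called lower in Sf than in B6, by differences of -0.76 and -0.59 (limma adjusted p = 0.0355 and 0.0444).

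Among the death domain and MAP3K genes, Map3k14, the kinase of the alternative branch, gave opposite directions at its 2 probe sets. The chosen one read 7.24 in B6, 7.33, 7.61 and 7.27 in the Sf arrays, and 7.11, 7.18 and 7.01 in the Sf.Il2-/- arrays, each Sf.Il2-/- array below each Sf array, with a difference of -0.30 ± 0.19 (limma adjusted p = 0.803). The other read 7.16 in B6, 5.74, 5.53 and 6.55 in the Sf arrays, and 5.88, 6.52 and 6.75 in the Sf.Il2-/- arrays, a difference of 0.44, with all 6 mutants below B6. Map3k7, the kinase upstream of IKK, read 7.85 in B6, 7.73 ± 0.54 (SD, n = 3) in Sf and 8.06 ± 0.14 (SD, n = 3) in Sf.Il2-/-. Its partners Tab1 (6.32 in B6, 5.80 ± 0.52 and 5.80 ± 0.30) and Tab2 (10.43 in B6, 10.33 ± 0.29 and 10.36 ± 0.22) differed between the mutant groups by 0.00 and 0.03. Tradd, the adaptor of the TNF receptor, read 8.27 in B6, 7.84 ± 0.25 and 8.01 ± 0.36.

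Of the Toll-like and interleukin-1 receptor adaptors, Irak1, a kinase, read 9.74 in B6, 9.18 ± 0.35 (SD, n = 3) in Sf and 9.16 ± 0.10 (SD, n = 3) in Sf.Il2-/-, with all 6 mutants below B6. Myd88, the shared adaptor, read 8.54 in B6, 8.59 ± 0.18 and 8.84 ± 0.19, with each Sf.Il2-/- array above B6. Differences between the mutant groups were -0.02 ± 0.22 for Irak1 and 0.24 ± 0.21 for Myd88.

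Counted over the members, groups that did not overlap were near or below their share among all genes. Cyld and Traf2 were higher in every Sf.Il2-/- array than in every Sf array, beside 8.39% of all genes, and Map3k14 was lower, beside 3.72%. In Sf 4 members (Rel, Nfkbie, Tnfaip3 and Map3k14) were above B6 in every array, beside 19.6% of all genes, and 15 were below it, beside 46.9%. In Sf.Il2-/- 7 members (Rel, Nfkbie, Tnip2, Traf1, Traf2, Map3k7 and Myd88) were above B6 in every array, beside 24.7%, and 16 were below it, beside 44.5%. These are counts at the brightest probe set, and other probe sets did not always place a gene on the same side. Among those that did not were others of Map3k14, Traf1, Map3k7 and Cyld. At another probe set Map3k7 read 7.94 in B6 and 6.28 to 7.45 in the mutant arrays.

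All 6 mutant arrays lay below B6 for 13 members, beside 37.3% of all genes, namely Rela, Nfkbid, Ikbkb, Ikbke, Tbk1, Tnip1, Cyld, Rnf31, Rbck1, Traf5, Birc2, Birc3 and Irak1. They lay above it for Rel and Nfkbie, beside 14.7%. Quantile normalization changed these counts to 6 below (24.0% of all genes), which were Rela, Ikbkb, Ikbke, Rnf31, Rbck1 and Tab1, and 9 above (25.8%), Rel and Nfkbie among them. Rela, Ikbkb, Ikbke, Rnf31 and Rbck1 were thus below B6 in every mutant array on both scales, but by less: after quantile normalization the Sf v B6 difference was -0.19 for Rela (limma adjusted p = 0.471) and -0.53 for Rbck1 (limma adjusted p = 0.316), and in Sf.Il2-/- v B6 that of Rela was -0.18 (limma adjusted p = 0.508). The sides of Tnip1 reversed. Among the other members that left the 13, the Sf v B6 differences of Tbk1 (0.06) and Birc3 (0.22) were then above 0. Those of Nfkbid, Cyld, Traf5, Birc2 and Irak1 stayed below 0, from -0.35 to -0.05.

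**Figure D4:**
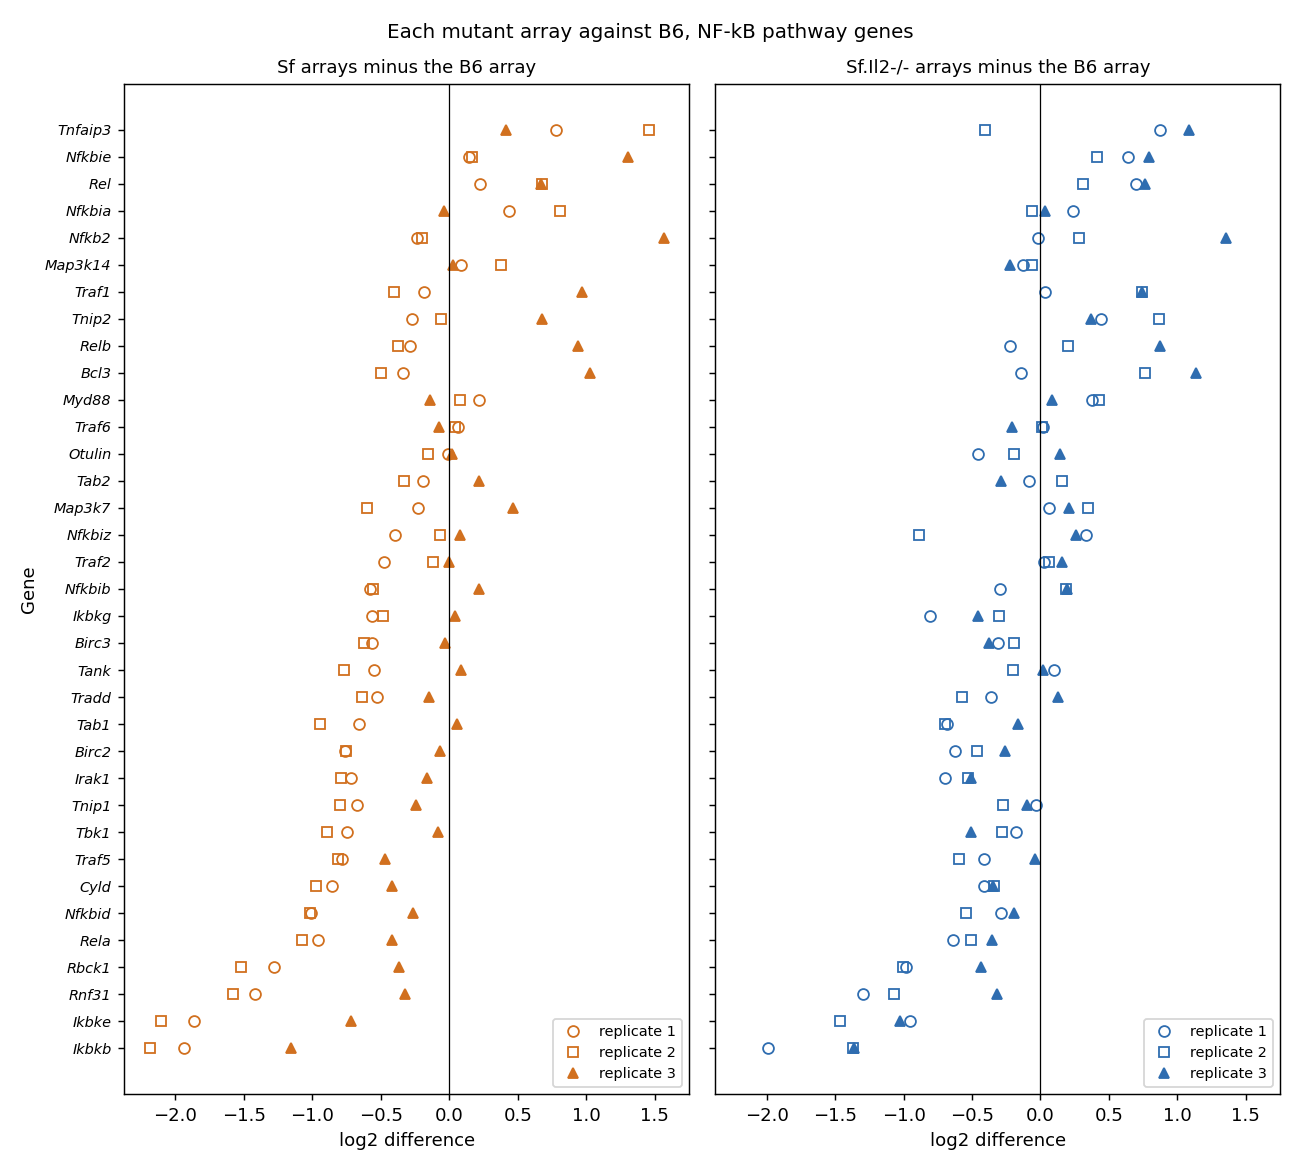
Each mark is 1 mutant array minus the B6 array for an NF-kB pathway gene, in log2 units, with genes ordered by the Sf mean and replicate 3 filled. Ikbkb, Ikbke, Rnf31, Rbck1 and Rela are below 0 in all 6 arrays, and replicate 3 of Sf lies to the right of the other Sf arrays for most genes.

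The array Sf 3 set much of the spread. It was the highest Sf array in 29 of the 35 members (82.9%), beside 68.0% of all genes tested, and the SD was larger in Sf than in Sf.Il2-/- in 28 (80.0%), beside 66.0%. The median SD of the members was 0.42 in Sf and 0.25 in Sf.Il2-/-. Without Sf 3, 15 members passed in Sf v B6, with Nfkbia higher and Rela, Nfkbid, Ikbkb, Ikbke, Tbk1, Tank, Tnip1, Cyld, Rnf31, Rbck1, Traf5, Birc2, Birc3 and Irak1 lower. In Sf.Il2-/- v Sf 5 then passed, with Nfkbid, Ikbke, Tank and Tnip1 higher in Sf.Il2-/- and Nfkbia lower, and in Sf.Il2-/- v B6 Ikbkb and Ikbke were lower. Over all genes that fit called 3509 (30.6%), 854 (7.45%) and 1560 (13.6%) in the same 3 comparisons, against 283, 32 and 308 with Sf 3, and it leaves no Sf array in set 2 with B6. Within set 2, where each group has 1 array and no test is possible, the member differences for Sf v B6 ran from -1.15 (Ikbkb) to 1.57 (Nfkb2), with 17 above 0 and 18 below.

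Sf 3 and Sf.Il2-/- 3 were also high together. Both lay above the other 4 mutant arrays in 16 members, beside 34.3% of all genes, and above all other 5 arrays in 7 (Nfkb2, Relb, Nfkbib, Nfkbie, Bcl3, Otulin and Traf1), beside 10.5%. After quantile normalization only Nfkb2 and Relb kept the latter pattern (5.24% of all genes). Between the mutant groups, the member median was 0.34 within set 1, with 28 of 35 above 0, and -0.06 within set 2, with 15 above 0. The share of the array sets in these differences was not tested beyond the block, under which no member passed in Sf.Il2-/- v Sf.

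Probe sets of one member did not always run together. Of the 35 members 14 had 1 probe set and 21 had several, 79 probe sets in all. Of the 44 not chosen, 31 had the sign of the chosen one in Sf v B6, 31 in Sf.Il2-/- v B6 and 20 in Sf.Il2-/- v Sf. In the last comparison the direction at 1 probe set was therefore a weak guide to the others of that gene. Tnfaip3 was one that held, with its other probe set at 7.84 in B6, 9.29, 10.13 and 9.03 in the Sf arrays, and 9.36, 7.74 and 9.60 in the Sf.Il2-/- arrays.

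Outside the members, other genes linked to the pathway were listed as signalling components, receptors and induced targets. These lists were chosen with earlier results of these data known, so their counts and medians are a description and not a test. Of 32 tested other components of the pathway, 0 passed in each comparison by limma. Over all genes 0.279% passed in Sf.Il2-/- v Sf, 2.47% in Sf v B6 and 2.69% in Sf.Il2-/- v B6. In that order 1, 8 and 2 of the components had an unadjusted p under 0.05, beside 7.92%, 22.5% and 18.6% of all genes. With so few genes called in all, 0 of 32 does not set the components apart. Prkcq, a protein kinase C of T cell receptor signalling, came closest (Sf v B6, -1.24 ± 0.28; limma adjusted p = 0.0507), and it passed once arrays were centred on their medians. Of 19 receptors, Il1r1, the interleukin-1 receptor, was called higher in all 3 comparisons and Tnfrsf4, a costimulatory receptor of activated T cells, in Sf.Il2-/- v B6. Il1r1 read 4.11 in B6, 5.65, 5.74 and 5.69 in the Sf arrays, and 6.91, 7.19 and 7.31 in the Sf.Il2-/- arrays, in 3 separate bands. It rose by 1.44 ± 0.20 in Sf.Il2-/- over Sf (limma adjusted p = 0.0277), but passed there on leaving out Sf 3 and not on leaving out any other array. Without Sf 1 and Sf.Il2-/- 2, the arrays with most neutrophil transcripts, it passed in Sf.Il2-/- v B6 only. Tnfrsf4 read 9.40 in B6 and 10.4 to 11.3 in the mutants, and rose by 1.69 ± 0.33 in Sf.Il2-/- over B6 (limma adjusted p = 0.0343), a call lost on leaving out any one Sf.Il2-/- array. Without Sf 3, 2 other components rose and 11 fell in Sf v B6, 3 rose in Sf.Il2-/- v Sf and 3 fell in Sf.Il2-/- v B6, and of the receptors 4 rose and 5 fell in Sf v B6. Over all genes in that fit 5.92% rose and 24.7% fell in Sf v B6, 5.85% rose in Sf.Il2-/- v Sf and 8.91% fell in Sf.Il2-/- v B6.

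The 25 tested genes known to be induced by NF-kB were also listed with earlier results known. Of these, 3 rose and 0 fell in Sf v B6, and 6 rose and 2 fell in Sf.Il2-/- v B6. Over all genes 2.47% and 2.69% were called in these comparisons, in either direction. The median differences of the 25 targets were 0.72 and 0.52, against -0.25 and -0.14 over all genes. Cxcl10, a chemokine that interferons also induce, read 5.63 in B6, 8.56 to 9.86 in Sf and 8.81 to 8.97 in Sf.Il2-/-. It rose by 3.57 ± 0.43 in Sf (limma adjusted p = 0.00562) and by 3.28 ± 0.43 in Sf.Il2-/- (limma adjusted p = 0.00767). Ier3, an immediate early gene, read 3.69 in B6 and 6.96 to 8.33 in the mutants, rising by 3.92 ± 0.53 (limma adjusted p = 0.00817) and 3.80 ± 0.53 (limma adjusted p = 0.0101). Tnfsf14, a TNF-family ligand, rose by 1.93 ± 0.40 in Sf (limma adjusted p = 0.0420) and by 2.76 ± 0.40 in Sf.Il2-/- (limma adjusted p = 0.0114). Each mutant array was above B6 for these 3 genes, and Cxcl10 and Ier3 passed in both comparisons whichever array was left out. Ccl4, a chemokine, read 4.53 in B6, 5.83 to 6.49 in Sf and 7.99 to 9.77 in Sf.Il2-/-, and rose in Sf.Il2-/- over B6 (4.28 ± 0.57; limma adjusted p = 0.00782) and over Sf (2.74 ± 0.40; limma adjusted p = 0.0322), the latter not without Sf 1, Sf 2 or Sf.Il2-/- 3. Vcam1 and Ccl5 also rose in Sf.Il2-/- v B6, while Il2ra and Ccnd2 fell. The call of Ccl5 was lost on leaving out any one Sf.Il2-/- array, and that of Ccnd2 on leaving out Sf 1, Sf.Il2-/- 2 or Sf.Il2-/- 3. In Sf.Il2-/- v Sf Il2ra was the 1 target that fell. For Il1r1, Ier3, Ccl4 and Vcam1 the B6 value lay below 5, near the floor of the arrays, so the sizes against B6 are not exact. These genes passed the filter on low values only through the mutant groups, where they were high. Their part in the receptor and target counts against B6, and in the target medians, is therefore not independent of the filter. Without Sf 3, 7 targets rose and 3 fell in Sf v B6, 7 rose and 2 fell in Sf.Il2-/- v Sf, and 9 rose and 2 fell in Sf.Il2-/- v B6, where all genes tested rose in 5.92%, 5.85% and 4.70% and fell in 24.7%, 1.61% and 8.91%. With the array set as a block 10 rose and 2 fell in Sf.Il2-/- v B6 (4.05% and 2.24% of all genes). Without Sf 1 and Sf.Il2-/- 2 it was 9 and 1 (2.05% and 0.925%), with 7 and 0 in Sf v B6 (2.01% and 0.986%). In each of these fits Il2, the gene with the null allele in Sf.Il2-/-, was counted among the targets that rose in Sf.Il2-/- v B6. Without Sf 3 it was also counted in Sf.Il2-/- v Sf. Its reading does not test the genotype. Leaving out Sf 1 alone, or any one Sf.Il2-/- array alone, ended the call of Tnfsf14 in Sf v B6. The summed NK and cytotoxic markers moved with these targets, from 407 in B6 to 1056 to 2445 in Sf and 2302 to 3712 in Sf.Il2-/-, and their part in the result was not tested.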

How the data were processed

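The authors' deposited table holds a linear intensity for 45037 probe sets in each of 7 arrays. GCRMA and GCOS are named per the submitters' processing notes, with no role or version; other steps are not given in the sources used here. Values were taken as log2(intensity + 1). The array annotation gave 34945 probe sets a single gene, 932 more than one and 9160 none; symbols were updated through Entrez numbers for 34741. A gene was tested where its highest group mean was at least 5. A single limma 3.58.1 model (R 4.3.3; lmFit, then eBayes with trend) held the means of the 3 groups, leaving 4 residual degrees of freedom (9.57 after moderation), and p-values were adjusted by Benjamini-Hochberg over 11460 genes at 0.05. The number of arrays limits the precision.

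Members and lists were chosen with earlier results of these data known. Every member is reported, with full statistics where it passed or, where none did, for the lowest p; from other lists up to 4 genes per comparison with the lowest adjusted p are given, and Prkcq, Sharpin and genes outside that limit were named after their values were seen. Replicate numbers were checked for pairing: deviations of same-numbered mutant arrays correlated at 0.301, 0.211 and 0.505, although Sf 2 with Sf.Il2-/- 1 gave 0.333. The titles state no pairing, so the replicate block was an alternative. Other alternatives were the filter, the scaling, the pseudocount, the trend, the mean of probe sets, the array set, leaving out each array and, added with earlier results known, leaving out Sf 1 and Sf.Il2-/- 2 together. The fit was tested on simulated data. Figures used matplotlib 3.10.9 in Python 3.11.15.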

Additional observations from a re-analysis of the deposited data

How the results depend on the processing

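Calls among the 35 members and over all genes depended on the arrays and the scaling, and the cause was not tested. Members past the threshold were 0 in every comparison, and leaving out 1 array at a time gave 0 to 5 in Sf.Il2-/- v Sf, 0 to 15 in Sf v B6 and 0 to 2 in Sf.Il2-/- v B6, the highest each time without Sf 3. Array set 1 alone gave 1 in Sf.Il2-/- v Sf, and quantile normalization and the array set block each gave 1 in Sf v B6 and 1 in Sf.Il2-/- v B6. The replicate block, run for Sf.Il2-/- v Sf only since B6 has 1 number, left 0 members and changed no member's call, but moved the calls over all genes from 32 to 60. Those calls were otherwise 11 with no filter, 74 with the array set block, 571 in set 1 alone, 52 without Sf 1 and Sf.Il2-/- 2, and 8 to 854 leaving out 1 array. For Sf v B6 (283) they were 161 with no filter, 550 after quantile normalization, 188 with the mean of probe sets, 605 with the array set block and 118 to 3509 leaving out 1 array. For Sf.Il2-/- v B6 (308) they were 138, 734 and 721 with no filter, quantile normalization and the array set block, and 129 to 1560 leaving out 1 array. The difference of Tnip1 in Sf.Il2-/- v Sf and those of Ikbkb in both comparisons with B6 kept their sign under every alternative run. That of Tnip1 in Sf v B6 did not, moving from -0.57 to 0.06 after quantile normalization. Differences of other members are not covered by this statement, and some of them also changed sign. With 1 B6 array, its own spread is not measured.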
